A study of Mus musculus with 149 samples.

Results

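The genes described here are 5 enzymes that break down serine, glycine, glyoxylate and proline: Sds, Sdsl, Gldc, Agxt and Prodh. They were chosen by name, as 5 of the 20308 mouse genes in a table of 149 single liver cells, and their values were followed by capture chip and along the order in which the table lists the cells. All cells came from 1 wild-type male C57BL/6 mouse of 8 weeks, whose liver was perfused and enriched for hepatocytes, the parenchymal cells of the organ, by slow spins. The cells were caught on Fluidigm C1 microfluidic chips of 3 trap sizes: 80 cells on the large chip (17 to 25 µm), 30 on the medium chip (10 to 17 µm) and 39 on the small chip (5 to 10 µm). The series title names the recovery of position in the hepatic lobule, the unit of liver between the portal tract, where blood enters, and the central vein, where it leaves. As the cells share 1 animal and every chip counts as 1 sample, there was no replication to test against, and the differences below describe these cells without p-values.

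Serine, glycine and proline are broken down in the liver to pyruvate, one-carbon units and glutamate, which feed glucose synthesis, folate metabolism and the urea cycle. Hepatocytes near the portal tract are known for glucose synthesis and amino acid breakdown, and those near the central vein for glutamine synthesis and cytochrome P450 enzymes. Sds encodes serine dehydratase, which turns serine into pyruvate and ammonia, and Sdsl encodes a related dehydratase whose activity is known from the human protein. Gldc encodes glycine decarboxylase, the subunit of the mitochondrial glycine cleavage system that takes the carboxyl group off glycine. Agxt encodes alanine-glyoxylate aminotransferase, which makes glycine from glyoxylate and, in rodents, also uses serine as an amino donor. Prodh encodes proline dehydrogenase, the first enzyme of mitochondrial proline breakdown, whose product is oxidised to glutamate by the enzyme of Aldh4a1.

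Sds and Sdsl are neighbours on chromosome 5 of mm10, with Sds (ENSMUSG00000029597.14) on the plus strand at 120476526 to 120483932 and Sdsl on the minus strand at 120458186 to 120472810. Their starts face away from each other across 3715 bases that hold no annotated gene, and their transcripts share 0 words of 30 bases. Sds overlaps Plbd2 and Gm15690 on the minus strand, and 418 of its 1688 words of 30 bases (24.8%) also occur in transcripts of those 2 genes on either strand. The labels do not say whether strand was used, so reads of those words cannot be assigned to 1 gene. Gldc lies on chromosome 19 at 30098447 to 30175429 on the minus strand. Agxt lies on chromosome 1 at 93135240 to 93145421 on the plus strand, with 0 shared words. Prodh lies on chromosome 16 at 18060357 to 18090203 on the minus strand and overlaps Dgcr6 on the plus strand. Of the words of Gldc and Prodh, 2.79% and 1.93% recur in transcripts of many other genes.

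Promoter sequence from RefSeq (GRCm38.p6) was at hand for 3 of the 5 genes. It is shown because Gldc and Agxt were higher in the same cells while Prodh was not, and because the letters can be compared directly. Each run is read 5′ to 3′ on the strand of the gene and holds bases before the RefSeq start outside annotated exons. Capitals mark matches to 5 short motifs, searched on both strands. The Agxt window is chr1:93134990-93135239 on the plus strand, the Gldc window is chr19:30175442-30175691 on the minus strand, and the Prodh window is chr16:18089293-18089440 on the minus strand. The Prodh run is 148 bases long, ends 102 bases before the RefSeq start and lies inside the longer gene span given above.
Agxt promoter: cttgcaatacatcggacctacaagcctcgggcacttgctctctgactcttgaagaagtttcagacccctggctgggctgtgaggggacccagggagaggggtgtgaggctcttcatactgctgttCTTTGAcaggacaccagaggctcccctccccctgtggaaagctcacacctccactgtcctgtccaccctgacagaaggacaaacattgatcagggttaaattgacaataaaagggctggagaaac
Gldc promoter: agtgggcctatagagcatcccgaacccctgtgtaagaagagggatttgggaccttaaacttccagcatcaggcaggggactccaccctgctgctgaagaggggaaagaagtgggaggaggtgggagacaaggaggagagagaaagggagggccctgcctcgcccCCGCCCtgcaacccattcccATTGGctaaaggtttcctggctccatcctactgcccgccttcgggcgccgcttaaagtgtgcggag
Prodh promoter: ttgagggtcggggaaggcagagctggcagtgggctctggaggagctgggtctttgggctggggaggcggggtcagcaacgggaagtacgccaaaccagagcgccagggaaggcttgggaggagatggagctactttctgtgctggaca
The Agxt window held the TCF core CTTTGA, a motif bound by the DNA-binding partners of β-catenin, with its first base at -125 from the start. That motif occurred in 13.8% of 32851 mouse windows of 250 bases. The Gldc window held, on the reverse strand, a CCAAT box (printed as ATTGG, first base at -66) and a GC box, GGGCGG (printed as CCGCCC, first base at -86). CCAAT occurred in 33.9% and GGGCGG in 32.7% of the windows. The Prodh run held none of the motifs, and the TATA box TATAAA (12.4% of windows) and the cAMP response element TGACGTCA (1.55%) were in none of the printed runs. These matches overlapped each other nowhere and describe letters only.

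The chips differed in how much of a cell's summed values came from the ERCC spike-in, synthetic RNA added at lysis. The median spike-in share was 3.66% for the large chip, 82.7% for the medium chip and 82.8% for the small chip. The median number of mouse genes above 0 was 7389.5, 2306.5 and 3087 for these chips, and spike-ins stayed under 50% in 64 of 80, 7 of 30 and 12 of 39 cells. Hepatocyte markers were present in every cell, with at least 3 of 7 above 0, and the lowest Alb value was 3846 on the large, 3936 on the medium and 2412 on the small chip. In the large chip, 23 cells had summed values over 3000000, 16 of them with spike-ins at 50% or more, and results are given without them where they moved. Sums were over 3000000 in 26 of 30 medium-chip and 35 of 39 small-chip cells. The median sum was 1.82e+06 on the large, 5.68e+06 on the medium and 5.54e+06 on the small chip, so deposited levels do not share 1 total. All values are the deposited normalised expected counts, without unit, and their read depth is unknown.

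Position was read from a pair of axes. The column order runs from cells high in Cyp2f2, a P450 of portal hepatocytes, to cells high in Cyp2e1, a P450 of central hepatocytes. In the large chip the Spearman rho with the order was -0.81 for Cyp2f2 and 0.86 for Cyp2e1. How the authors made the order is not given in the sources used here, and it may rest on the genes described. The landmark score used none of the 5 genes: it is the mean z-score of 6 central genes minus that of 5 portal genes, and it tracked the order with a rho of 0.92 (large chip), 0.87 (medium chip) and 0.80 (small chip). A negative rho means higher toward the portal side, and a gene is called graded where rho is 0.3 or more in size.

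Sds, Sdsl, Gldc and Agxt, 4 of the 5 genes, were graded toward the portal side in the large chip on both axes, and Prodh ran the other way. Along the order, 4.82% of the 8813 genes measured were graded toward the portal side, and 2% toward the central side, where Prodh was the 1 of the 5. Along the score the portal share of all genes was 5.91%, with the same 4 of 5. The central share was 1.78%, with 0 of 5. Sds was second from the lowest rho of 8813 genes along the order, at rank 2, against rank 16 for Gldc, 86 for Agxt, 145 for Sdsl and 8660 for Prodh. Along the score, which uses none of the 5 genes, the ranks were 4 for Sds, 31 for Gldc, 51 for Agxt, 192 for Sdsl and 8543 for Prodh. All genes had a median rho of -0.026 with the order and -0.042 with the score. Genes measured were those above 0 in at least 20% of the 149 cells. All 5 passed, Sdsl by the narrowest margin with 35 cells (23.5%), most of them in the large chip.

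**Figure D1:**
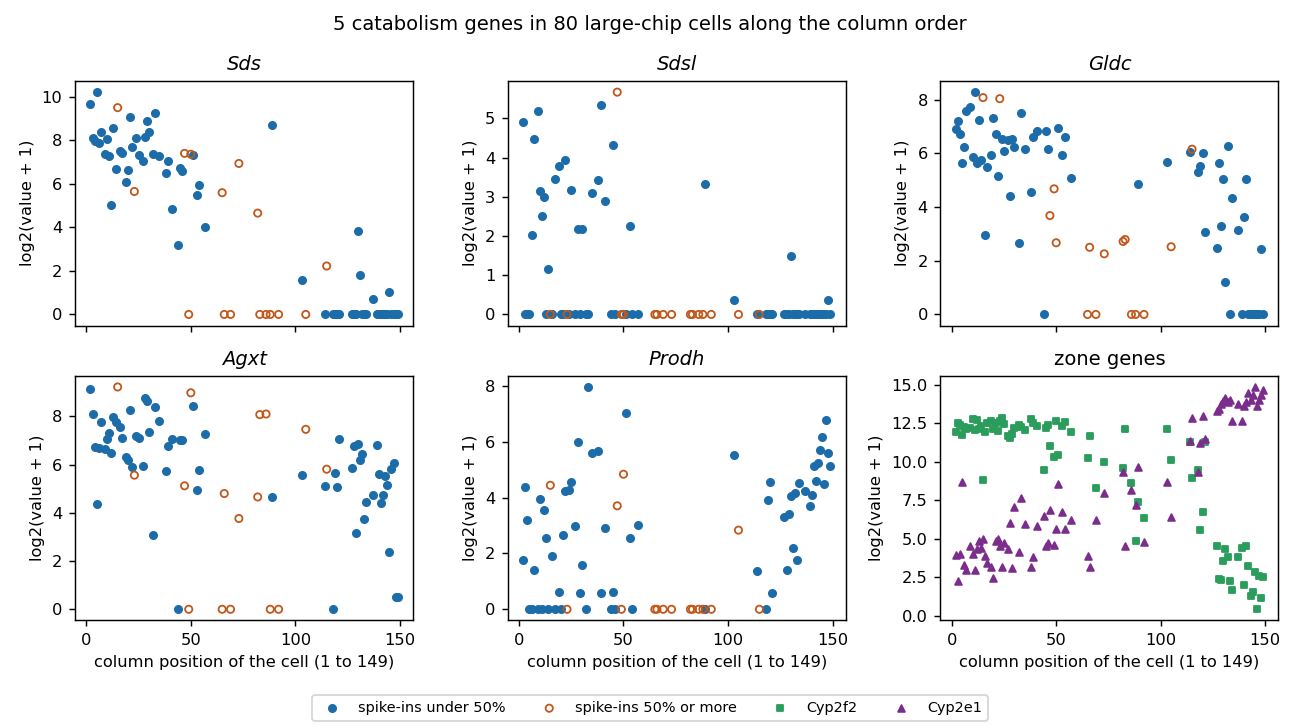
Each panel plots log2(value + 1) of 1 gene against the cell's position among the 149 table columns, for the 80 large-chip cells, portal side at the left. Filled points are cells with spike-ins under 50% and open points the others, and the last panel gives Cyp2f2 and Cyp2e1. Of the last 16 cells, Sds is above 0 in 3 and Gldc in 7, while Agxt, at lower values than on the left, and Prodh are above 0 in all 16.

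Sds had the steepest gradient of the 5. At the portal end of the score, its values in 16 large-chip cells ran from 49.3 through a median of 242 to 1193. At the central end, 16 cells ran from 0 through a median of 0 to 3.68, with 3 cells above 0. The ends did not overlap: the lowest portal cell was above the highest central cell. The means were 285 ± 277 at the portal end and 0.34 ± 0.94 at the central end (SD over 16 cells each), a log2 ratio of 7.74 with 1 added to each mean. By column order the log2 ratio was 8.05. With all 80 cells cut by score into 5 bins of 16, from portal to central, the Sds medians were 242, 169, 23.5, 0 and 0, with 16, 15, 11, 6 and 3 cells above 0. The level thus fell away within the middle bin, which had the fewest genes above 0, a median of 6669. That bin and bin 4 each held 6 of the 16 cells with spike-ins at 50% or more. The part of depth in the fall of Sds was not tested. Among the 64 cells with spike-ins under 50%, the rho with the score was -0.84, against -0.77 in all 80.

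The large chip was also split by Cyp2f2 and Cyp2e1 alone. Both are landmarks of the score, so the split is a coarser reading of the same axis and no separate support. Sds was above 0 in 45 of the 53 cells where Cyp2f2 was at or above Cyp2e1 (median 133). It was above 0 in 6 of the 27 cells where Cyp2e1 was above Cyp2f2 (median 0). With spike-ins under 50%, the counts were 38 of 39 cells and 5 of 25 cells. The highest Sds value on the Cyp2e1 side was 414, in cell 7, in which spike-ins took 34.04% of the summed values, Cyp2e1 was 818 and Cyp2f2 was 170. The overlapping gene Plbd2, a phospholipase B-like gene, had a rho of -0.35 with the score and 0.29 with Sds over the same 80 cells. With the genes it does not overlap, its rho was 0.36 for Sdsl, 0.36 for Gldc, 0.28 for Agxt and 0.20 for Prodh. The share of Sds values owed to the overlap with Plbd2 was not tested.

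Sdsl, the sequence relative next to Sds, was low and patchy. It was above 0 in 25 of 80 large-chip cells, and 24 of those 25 also had Sds. Of the other 55 cells, 27 had Sds alone of the pair and 28 had neither. Cells with Sdsl were therefore nearly all cells with Sds, while about as many Sds cells lacked Sdsl as had it. At the portal end of the score Sdsl ran from 0 through a median of 2.14 to 39.4, with 9 of 16 cells above 0. At the central end it was above 0 in 1 of 16 cells, at 0.28. The rho was -0.44 with the order and -0.44 with the score, and the 5 bins held 9, 9, 4, 2 and 1 cells above 0. On the side where Cyp2f2 was at or above Cyp2e1 it was above 0 in 22 of 53 cells, against 3 of 27 cells on the Cyp2e1 side.

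Gldc, the glycine cleavage decarboxylase, was graded toward the portal side but kept values above 0 in some central cells. At the portal end its values ran from 5.26 through a median of 82.7 to 311, all 16 cells above 0. At the central end they ran from 0 through a median of 0 to 70.5, with 7 cells above 0. The ends overlapped, and the means were 111 ± 86.5 at the portal end and 11.5 ± 19.9 at the central end (SD over 16 cells each), a log2 ratio of 3.17. The 5 bins had medians of 82.7, 83.2, 41.2, 7.18 and 0, so that the first and second were alike and the decline came after them. The Gldc level was not at 0 in bin 4, where 13 of 16 cells were above 0, against 6 of 16 for Sds. The rho was -0.68 with the order and -0.65 with the score. Split by the P450 pair, Gldc was above 0 in 48 of 53 cells on the Cyp2f2 side (median 59.9) and 17 of 27 cells on the Cyp2e1 side (median 7.49).

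Agxt, the glyoxylate aminotransferase, was the most widely detected of the 5 in the large chip, above 0 in 73 of 80 cells. At the portal end of the score it ran from 7.56 through a median of 135 to 432. At the central end it ran from 0 through a median of 25.8 to 113, with 15 of 16 cells above 0. The ends overlapped, and the difference was one of level and not of presence: the means were 157 ± 115 at the portal end and 32.9 ± 30.2 at the central end (SD over 16 cells each), a log2 ratio of 2.22. The 5 bins had medians of 135, 174, 74.7, 29.7 and 25.8, so that the highest was the bin after the portal end. The rho was -0.51 with the order and -0.59 with the score, and with spike-ins under 50% these were -0.59 and -0.66. On the Cyp2f2 side Agxt was above 0 in 47 of 53 cells (median 130), and on the Cyp2e1 side in 26 of 27 cells (median 34.7).

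Counting a gene as different where its mean was at least 2-fold apart between the 16-cell ends, with 1 added, 4 of the 5 genes were higher at the portal end on the score. So were 21.7% of the genes measured. By column order the same 4 met that size, beside 21.9% of the genes measured. Prodh met it in the central direction by order, as 1 of 5, beside 7.44% of the genes measured. By score it did not (0 of 5, beside 17.7%).

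Prodh, the proline dehydrogenase, leaned toward the central side, and more weakly than the other genes leaned toward the portal side. By column order it ran from 0 through a median of 2.04 to 20.7 at the portal end, with 10 of 16 cells above 0. At the central end it ran from 2.4 through a median of 22.6 to 109, with all 16 cells above 0. The ends overlapped between 2.4 and 20.7, and the means were 5.35 ± 7.20 at the portal end and 32.3 ± 27.2 at the central end (SD over 16 cells each), a log2 ratio of -2.39. Its rho was 0.32 with the order and 0.24 with the score, so that on the score it was not called graded. With spike-ins under 50% these were 0.45 and 0.33, and without the 23 cells of large sums 0.54 and 0.52.

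The portal end of the score held 1 cell that set the mean of Prodh. Cell 53 had the highest Prodh value of the large chip, 248, in a cell with Cyp2f2 at 4980, Cyp2e1 at 202 and Sds at 617. With it the portal mean was 24.7 ± 61.6, against 31.04 ± 28.4 at the central end (SD over 16 cells each), and the log2 ratio was -0.32. Without it the mean of the remaining portal cells was 9.88. With the portal end refilled to 16 cells, the log2 ratio was -1.62. The medians, 1.12 at the portal end and 22.6 at the central end, were far apart in either case. Spike-ins took 40.99% of the summed values of cell 53.

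Over the 5 bins of the score, Prodh had medians of 1.12, 2.58, 5.52, 1.61 and 22.6, with 10, 12, 10, 9 and 14 cells above 0. Its median thus stood apart in the last bin and had no steady course before it. The values did not stand apart: they ran from 0 to 109 in the last bin and from 0 to 248 in the first. Over 5 bins of the column order the medians were 2.04, 6.76, 0, 1.61 and 22.6, and the middle one had 6 of 16 cells above 0. On the side where Cyp2f2 was at or above Cyp2e1, Prodh was above 0 in 31 of 53 cells (median 1.68), and on the Cyp2e1 side in 24 of 27 cells (median 16.0). With spike-ins under 50% the counts were 27 of 39 cells and 24 of 25 cells. Dgcr6, which overlaps Prodh, had a rho of 0.061 with the score.

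**Figure D2:**
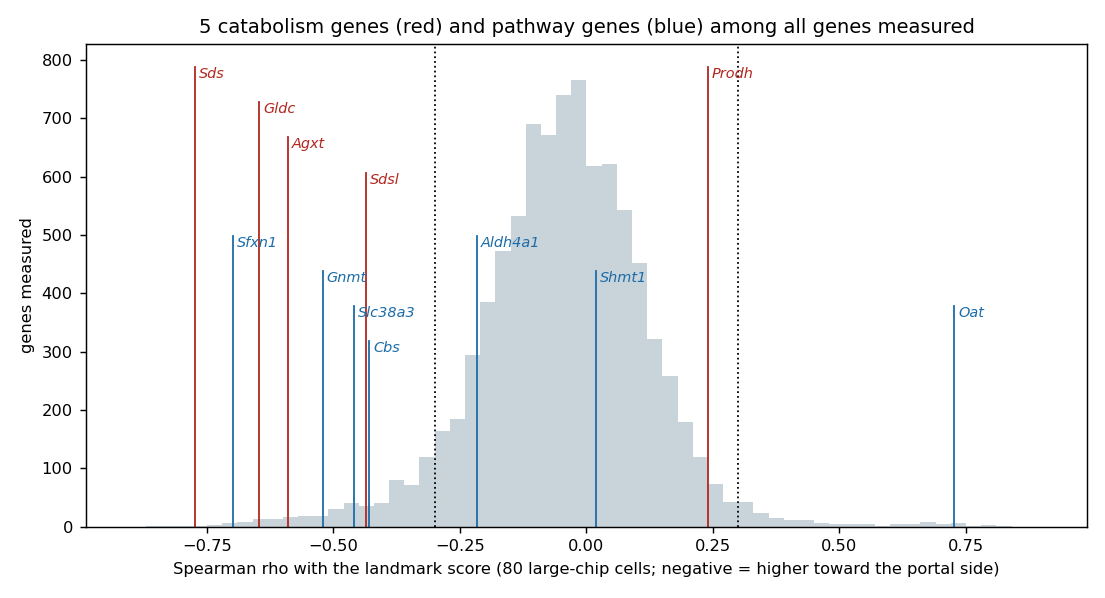
The histogram counts the 8813 genes measured by their Spearman rho with the landmark score over 80 large-chip cells, negative values being higher toward the portal side, with dotted lines at 0.3 in size. Red lines mark the 5 genes and blue lines genes of the surrounding pathways. Sds at -0.77, Gldc at -0.65, Agxt at -0.59 and Sdsl at -0.44 lie outside the portal line, and Prodh at 0.24 lies inside the central one.

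Across chips the portal lean of Sds was present each time. Its rho with the order was -0.83 on the large, -0.65 on the medium and -0.53 on the small chip, and with the score it was -0.77, -0.45 and -0.48. With the order, Gldc and Agxt had smaller values on both other chips than on the large one, and Sdsl on the small one only. Gldc had -0.68, -0.49 and -0.27, Agxt -0.51, -0.27 and -0.024, and Sdsl -0.44, -0.51 and -0.20. Prodh changed sign, with 0.32, 0.12 and -0.15. In the medium chip 3 of the 5 genes were graded toward the portal side by order and 4 by score, but so were 23.2% and 26.3% of the genes measured there. None was graded toward the central side (0 of 5, beside 1.61% by order and 1.07% by score). On the small chip 1 of 5, Sds, was graded toward the portal side on either axis, beside 10.8% of genes by order and 11.3% by score. The central count was 0 of 5, beside 1.08% by order and 1.05% by score.

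The number of genes above 0 also ran along the order. In the medium chip the order had a rho of -0.41 with the number of genes above 0, and in the small chip -0.20, against 0.22 in the large chip. Its part in the share of graded genes was not tested. Keeping cells with spike-ins under 50% left 7 medium-chip cells, in which Agxt ran the other way, with a rho of 0.64 with the order. Over those 7 cells 3 of 5 genes were graded toward the portal side by order (beside 27% of genes) and 2 toward the central side (beside 20.3%). By score the counts were 0 (beside 12.4%) and 2 (beside 35.5%). It left 12 small-chip cells, in which Sds had -0.77, Gldc -0.70, Sdsl -0.40 and Prodh -0.39 with the order. These were 4 of 5 toward the portal side, beside 23.7% of genes, and 0 toward the central side, beside 9.25%. By score 4 of 5 were graded toward the portal side, beside 22.7%, and 0 toward the central side, beside 12.3%. So many genes pass the limit over so few cells that the counts say little. In the large chip that restriction left 4 of 5 genes graded toward the portal side, beside 7.01% of genes by order and 7.18% by score. It left 1 of 5 graded toward the central side on both axes, beside 3.72% by order and 3.84% by score.

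Levels by chip were led by single cells in the smaller chips. On the large chip Sds was above 0 in 51 of 80 cells, or 63.75%, with an exact Clopper-Pearson 95% interval of 52.2% to 74.2% that covers counting error only. On the medium chip it was above 0 in 16 of 30 cells (53.3%, 34.3% to 71.7%). The small chip had 18 of 39 such cells (46.2%, 30.1% to 62.8%). Its medians were 37.5, 0.985 and 0, and its highest values 1193, 2215 and 639. The chips' ranges overlapped fully at 0, and the highest Sds value of all was a medium-chip cell, cell 17.

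The share of cells above 0 was also highest on the large chip for the other 4 genes. The median number of mouse genes above 0 was also highest there, at 7389.5 against 2306.5 on the medium and 3087 on the small chip. Its part in these shares was not tested. The intervals cover counting error only and do not compare the chips. The share with Agxt was 91.25% on the large chip (82.8% to 96.4%), 63.3% on the medium chip (43.9% to 80.1%) and 61.5% on the small chip (44.6% to 76.6%), with medians of 68.5, 2.79 and 4.23. Gldc was above 0 in 81.25%, 63.3% and 66.7% of cells, with medians of 36.8, 2.7 and 7.1. These 2 genes were thus near 0 in the median medium- or small-chip cell. Prodh was above 0 in 68.75%, 30% and 38.5% of cells, and its median was 5.12 in the large chip and 0 in both others. Sdsl was above 0 in 31.25%, 13.3% and 15.4% of cells, and its median was 0 in each chip. The highest values of Gldc (3526, medium-chip cell 11) and Prodh (449, small-chip cell 23) again came from the smaller chips.

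Restricting the chips to cells with spike-ins under 50% changed these medians. The median of Agxt was then 82.7 on the large, 84.4 on the medium and 170 on the small chip. That of Gldc was 49.3, 28.3 and 30.7, and that of Sds was 64.9, 2.32 and 87.7. These medians rest on 64, 7 and 12 cells and cannot be read as an effect of cell size. The median column position was 53.5, 65.5 and 101 by chip over all cells. It is not reported here for the restricted cells. Cell size, chip and the amount of RNA caught cannot be told apart here. Kupffer cell markers also differed by chip: at least 3 of the 5 in the table were above 0 in 0 of 80 large-chip, 6 of 30 medium-chip and 7 of 39 small-chip cells. Their summed level reached 152, 42799 and 52425 on these chips, and their part in the chip differences was not tested.

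**Figure D3:**
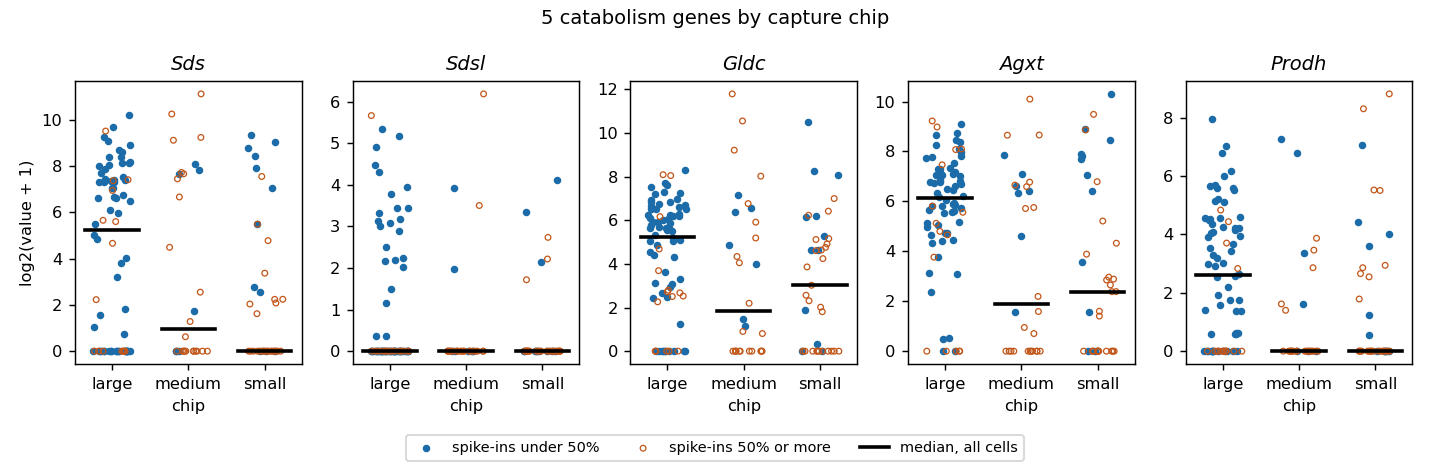
Each panel plots log2(value + 1) of 1 gene in every cell, by chip, with filled points for spike-ins under 50%, open points for the others and a black line at the median of all cells. The large-chip median is the highest of the 3 for Sds, Gldc, Agxt and Prodh, and the highest single values of Sds, Sdsl, Gldc, Agxt and Prodh lie in the medium or small chip.

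In the large chip the number of the 5 genes above 0 in a cell was 5 in 18 cells, 4 in 22, 3 in 22, 2 in 10, 1 in 5 and 0 in 3. In the medium chip all 5 were above 0 in 2 of 30 cells and none in 5, and in the small chip all 5 in 2 of 39 cells and none in 2. In the large chip all 25 cells with Sdsl also had Gldc and Agxt, and all 55 cells with Prodh also had Agxt. Gldc and Agxt were widely detected there, in 65 and 73 of all 80 cells, so such overlap is expected for most genes. Prodh without Agxt was seen in 1 medium-chip and 5 small-chip cells, and Sdsl without Gldc in 1 and 2. Prodh and Sds were both above 0 in 34 of the 80 cells, Sds alone of that pair in 17, Prodh alone in 21 and neither in 8.

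The 4 portal genes varied together. Over 80 large-chip cells the rho was 0.63 for Sds with Gldc, 0.55 for Gldc with Agxt, 0.54 for Sds with Agxt, 0.44 for Sds with Sdsl, 0.35 for Sdsl with Gldc and 0.25 for Sdsl with Agxt. The median over these 6 pairs was 0.49 on the large, 0.21 on the medium and 0.22 on the small chip. Pairs with Prodh lay between -0.073 and 0.17 in all large-chip cells, and between -0.30 and -0.050 with spike-ins under 50%. All such values share cells, libraries and depth. With the landmark score held constant, the median over the 6 pairs was 0.17, with a range of -0.012 to 0.27. Each of the 6 was smaller than without the score. The largest value given the score was that of Agxt with Prodh, at 0.40. With spike-ins under 50% that pair had 0.26 given the score, and the largest was then Gldc with Agxt, at 0.31.

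**Figure D4:**
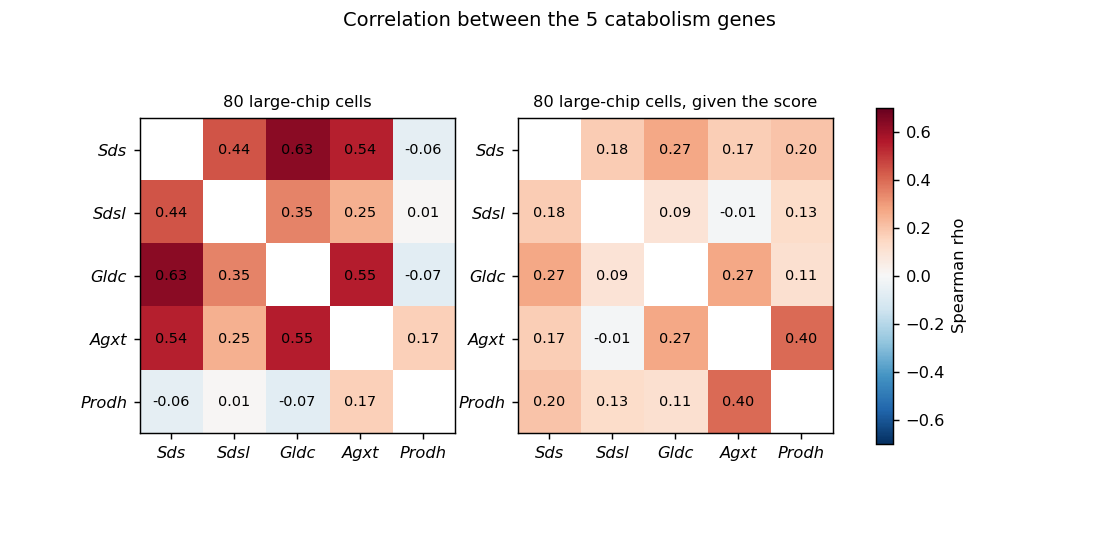
Both grids give the Spearman rho between each pair of the 5 genes over the 80 large-chip cells, as measured at the left and with the landmark score held constant at the right. Red is positive and blue negative. The 6 pairs among Sds, Sdsl, Gldc and Agxt have a median of 0.49 at the left and 0.17 at the right.

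The genes whose pattern was most like each enzyme were taken over the 64 large-chip cells with spike-ins under 50%, among 4406 genes of above-median level. For Sds they were Hal, the first enzyme of histidine breakdown (rho 0.80), Gls2, the liver glutaminase (0.80), and Slc25a47, a mitochondrial carrier of the liver (0.77). Gldc was most like Pck1, the gluconeogenic enzyme (0.71), Hrsp12, an imine deaminase (0.70), and Hsd17b13, a lipid droplet enzyme (0.69). Hal and Pck1 were among the landmarks of the score.

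Agxt was most like Fbp1, another gluconeogenic enzyme (0.73), Gc, the vitamin D-binding protein (0.69), and Serpind1, a secreted inhibitor of thrombin (0.69). Sdsl reached lower values, with Gas2 at 0.55, the protease Ctsc at 0.52 and the signal peptidase subunit Spcs2 at 0.50. Prodh was most like Phyh, a peroxisomal enzyme of branched fatty acid breakdown (0.58), the organic anion transporter Slco1b2 (0.54) and Odc1, the first enzyme of polyamine synthesis (0.53). Of these 3, Slco1b2 had a rho of 0.55 with the score, while Phyh had 0.052 and Odc1 -0.034. The closest matches of Prodh were therefore not all graded genes.

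Around the 5 enzymes, 43 genes of serine, glycine and proline metabolism and transport were followed, of which 33 passed the filter of 20% of cells. In the large chip 5 were graded toward the portal side, 1 toward the central side and 27 neither way, on both axes. Of all genes measured, 4.82% and 2% were so graded by order and 5.91% and 1.78% by score. Their median rho was -0.10 with the order and -0.15 with the score. The 10 that did not pass the filter included Phgdh and Psat1 of serine synthesis and Amt of glycine cleavage.

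Among the listed genes the steepest toward the portal side was one of serine transport. Sfxn1, the carrier that moves serine into mitochondria, had a rho of -0.68 with the order and -0.70 with the score. Its median was 179 at the portal end and 0.17 at the central end, with means of 223 ± 137 and 10.3 ± 31.9 (SD over 16 cells each). Over the 80 cells its rho was 0.73 with Sds and 0.66 with Gldc. Cbs, which condenses serine with homocysteine, had a median of 216 at the portal end and 107 at the central end, and a rho of -0.43 with the score. The amino acid transporters Slc38a3 (-0.46) and Slc38a4 (-0.36) were graded the same way.

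Glycine metabolism was uneven. Gnmt, which methylates glycine, was graded toward the portal side (-0.52 with the score), with a median of 1412 at the portal end and 686 at the central end. The measured partners of Gldc in the glycine cleavage system were not graded: Gcsh had -0.13 and Dld -0.21 with the score. Neither were Shmt1 (0.018) and Shmt2 (-0.18), which interconvert serine and glycine. The enzymes around Agxt in glyoxylate metabolism were not graded either, with -0.27 for Hao1, which makes glyoxylate, and -0.18 for Grhpr, which reduces it. All 6 measured genes of the glyoxylate and hydroxyproline list stayed under the limit in the large chip. With spike-ins under 50%, 1 of them, Agxt2, a mitochondrial aminotransferase of glyoxylate, was graded toward the central side, at 0.36 with the order and 0.32 with the score.

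No measured gene of proline and pyrroline carboxylate metabolism was graded along the score except Oat. Aldh4a1, which acts next after Prodh, had a rho of -0.22 with the score, with a median of 31.6 at the portal end and 21.1 at the central end. Its rho with Prodh over the 80 cells was 0.34. Prodh2, the hydroxyproline dehydrogenase, had -0.19 with the score. Oat, the ornithine aminotransferase and itself a landmark, was the central gene of the list, with 0.81 along the order and 0.73 with a score made without it. Its rho with Prodh was 0.34 in all 80 cells and 0.50 in the 57 cells without large sums. Histidine breakdown, taken for comparison, was graded toward the portal side in 4 of 4 genes, with Hal at -0.85, Amdhd1 at -0.70, Ftcd at -0.67 and Uroc1 at -0.64 on the score.

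Markers of other liver cells were not spread evenly along the large chip. At least 3 of 5 bile duct markers were above 0 in 22 of 80 cells, 8 of them among the 16 at the portal end and 1 among the 16 at the central end. Their summed level was 8.76 to 28186 at the portal end and 0 to 138 at the central end, where Krt19 and Epcam were at 0. At least 3 of 6 endothelial markers were above 0 in 12 cells, 1 at the portal end and 5 at the central end, with sums of 0 to 28.8 and 0 to 29908. Kupffer cell markers reached 3 in 0 large-chip cells, where Clec4f and Vsig4 were at 0 throughout, and stellate cell markers in 1. The part of these other cells in the gradients of the 5 genes was not tested.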

How the data were processed

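Single hepatocyte RNA was measured in 149 cells of 1 mouse on 3 chips. Per the submitters' processing notes, CASAVA 1.8.2, Bowtie 0.12.9 and RSEM 1.2.3 were used with mm10. The authors deposited 1 table of normalised expected counts, a signal without unit, whose name mentions SCnorm and WaveCrest. How these were run, and any filter on cells or genes, is not given in the sources used here. The values are not whole reads, so the read depth is unknown and no counting error of a level is given. All columns carry a sample title, and 0 columns were left unused.

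The 5 genes and the surrounding lists were chosen with earlier results of these data known. Replicate numbers only name cells. Spearman rho was computed within each chip on the deposited values along the column order and along the landmark score: z-scores of log2(value + 1) for Glul, Cyp2e1, Cyp1a2, Oat, Gulo and Slc1a2 minus those for Cyp2f2, Ass1, Asl, Hal and Pck1, without the gene examined. Ends are the 16 large-chip cells with the lowest and highest score or position. Other genes named are the 3 most alike each enzyme, those graded in the large chip, up to 4 a list, and Cyp2e1 and Cyp2f2. Ungraded list genes and the overlapping genes Plbd2 and Dgcr6 were named after their values were seen. The table lists Pycr3 under its older symbol, Pycrl. Single values of some listed genes are not reported here. Transcripts of near-identical copies were not separated. No doublet caller was run.

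Positions are from GENCODE M21 and promoters from RefSeq GRCm38.p6. The correlation step along the column order was tested on simulated data, and the end step was not. Alternatives covered the cells used, scaling, Pearson r, pseudocounts, landmarks, size limits, detection limits and partial correlations. Those without the cells of large sums or without cell 53 were added after seeing the data. Tables were handled in pandas 2.3.3 and numpy 2.4.6 under Python 3.11.15, intervals came from scipy 1.17.1, and plots from matplotlib 3.10.9.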

Additional observations from a re-analysis of the deposited data

How the results depend on the processing

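Sds, Sdsl, Gldc and Agxt stayed graded toward the portal side in the large chip under every alternative run on both axes. Their rho with the score ranged from -0.86 to -0.67 for Sds, -0.73 to -0.60 for Gldc, -0.71 to -0.47 for Agxt and -0.49 to -0.40 for Sdsl, and none changed sign. Prodh kept a positive rho (0.17 to 0.52 with the score) but crossed the limit. Along the order it was not graded (0 genes) given the number of genes above 0 (beside 1.29% of all genes), nor at a size limit of 0.4 (0.919%). Along the score it was graded (1 gene) with spike-ins under 50% (beside 3.84%), by Pearson r (2.14%), with Cyp2e1 and Cyp2f2 as the only landmarks (2.02%), at a limit of 0.2 (5.05%) and without sums over 3000000 (5.23%), against 1.78% as reported. Of the 33 pathway genes, the portal count by order was 3 by Pearson r, 9 given genes above 0 and 11 at a limit of 0.2, and by score 3, 13 and 13, and 8 without large sums. The portal share of all genes moved too, by order to 1.86%, 11.5% and 12.5%, and by score to 1.78%, 14.6%, 14.4% and 7.8%. Whether the pathway counts differed from these shares was not tested. The central count was 3 by order and 4 by score with spike-ins under 50%, and 4 on both axes at a limit of 0.2 and without large sums. The central share of all genes moved too, from 2% by order and 1.78% by score. By order it was 3.72%, 5.91% and 4.66% in these settings, and by score 3.84%, 5.05% and 5.23%. That comparison was not tested either. At values of 5 or more and of 10 or more, Sdsl was present in 20% and 10% of large-chip cells and Prodh in 50% and 40%, and Gldc in 63.75% at 10 or more. The log2 ratios of the ends by score, with 1 added 7.74 for Sds, 2.86 for Sdsl and 3.17 for Gldc, were 4.84, 0.71 and 2.50 with 10 added. With 8 cells an end they were 2.21 for Sdsl, 4.92 for Gldc and 2.90 for Agxt, and with 24 cells 4.03 for Sds and 2.46 for Gldc. Prodh had -2.24 without large sums and -1.62 without cell 53. By order they were, with 10 added, 5.07 for Sds, 0.87 for Sdsl, 2.72 for Gldc and -1.46 for Prodh. Gldc had 6.28 with 8 cells, and with 24 cells Sds had 7.43, Gldc 2.69 and Prodh -1.34. The median over the 6 pairs was 0.17 given the score. Apart from the fewer cells or changed constant that define these alternatives, the cause was not tested. Depth per cell is unknown, so a value of 0 may be a gene missed. No paired analysis was possible because replicate numbers only name cells and no test was run.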
